A study of Mus musculus with 6 samples.

Results

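The mitochondrial ribosomal protein genes were followed in bone marrow hematopoietic stem cells of Yy1 knockout and wild-type mice. The members were all protein-coding genes of the deposited table whose symbol begins with Mrps or Mrpl and a digit. There were 76 of them among 15553 listed genes, 29 named Mrps for the small subunit and 47 named Mrpl for the large one. The names and the place in the particle do not match for 3 members. Mrps18a and Mrps30 encode proteins of the large subunit, and Mrps36 encodes a subunit of the 2-oxoglutarate dehydrogenase complex, so that by place 26 members belonged to the small subunit and 49 to the large one. Mrpl53 is not analysed here. Mrpl58 is listed under its older symbol Ict1, so the choice by name did not take it, and it is counted below with the mitoribosomal proteins not named Mrp.

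The mitochondrial ribosome translates the few messenger RNAs of the mitochondrial genome, all of which encode subunits of the respiratory chain and the ATP synthase. Its ribosomal RNAs are transcribed inside the organelle, while its proteins are encoded in the nucleus, made in the cytoplasm and imported. Some of the proteins descend from the bacterial ancestor of the organelle and others were added later, and the promoters of many nuclear genes for mitochondrial proteins are known to bind NRF1, ETS-family factors such as GABP, and YY1.

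The knockout group had the genotype Yy1f/f;Mx1-Cre and the wild-type group the genotype Mx1-Cre, with 3 libraries each, all of strain C57BL/6 at an age of 6 to 8 weeks. Both groups therefore carried Mx1-Cre, a recombinase transgene under an interferon-inducible promoter that is not restricted to stem cells, and the labels name no inducer. The cells were sorted as lineage-negative, Sca1-positive and c-Kit-positive, with CD48-negative CD150-positive and CD150-negative gates in the protocol and only a CD150-positive gate in the source field, so the gate of each library is not settled. The labels do not say whether each library came from its own mouse, so p-values here speak for the spread among these libraries, which may in part be technical.

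Reads recovered from the deposited values summed to 19473176 to 21757039 per knockout library and 15102981 to 18460010 per wild-type library. These sums are estimates, at 1.11 to 1.17 times the library sizes inferred from the same values. Yy1 itself stood at 36.2, 16.6 and 28.5 RPKM (reads scaled by gene length and library size) in knockout, against 31.6, 42.3 and 52.1 RPKM in wild type. At this gene the library labelled Yy1 knockout replicate 1 fell inside the wild-type range, and the part of Yy1 that was deleted is not given, so knockout below means the libraries so labelled. Wild type replicate 3 had 1991 genes listed at 0, against 373 to 1099 in the other libraries. All 8 stem and progenitor markers were in the table, with a summed level of 352 to 375 RPKM in knockout and 459 to 558 RPKM in wild type. Cd48, which the sort selects against, stood at 0 to 1.97 RPKM in knockout and 0 to 3.76 RPKM in wild type. The 3 megakaryocyte markers summed to 87.3, 41.8 and 43.9 RPKM in knockout, against 21.8, 32.9 and 15.7 RPKM in wild type, without overlap. Their part in the results below was not tested. The erythroid markers summed to 23.4, 27.2 and 56.4 RPKM in knockout and 37.3, 21.1 and 39.6 RPKM in wild type. The listed myeloid markers summed to 3.03, 10.4 and 0.0883 RPKM in knockout and 5.88, 9.17 and 3.42 RPKM in wild type. Both of these sums overlapped between the genotypes. Among the B-cell and T-cell markers only Cd4 was listed, at no more than 0.468 RPKM. In bulk RNA, fewer cells of a type and less RNA per cell cannot be told apart.

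No member passed the test for a difference between the genotypes. The test was limma on log2(RPKM + 0.5) over 13179 genes with Benjamini-Hochberg adjustment at 0.05, and it called 0 of the 76 members, against 0% of all genes tested. An unadjusted p under 0.05 was reached by 3 members, beside 7.79% of all genes tested. Of these, Mrps11 and Mrpl23 were higher in knockout, beside 4.73% of all genes, and Mrps12 was lower, beside 3.06%. The 3 knockout values lay clear of the 3 wild-type values in 8 members (10.5%), beside 14.5% of all genes tested. There were 5 higher in knockout and 3 lower, beside 7.63% and 6.87% of all genes. With any 1 library left out the test again called 0 members. At an unadjusted p under 0.05 there were then 4, 3 and 5 members without knockout replicates 1 to 3, beside 5.41%, 6.11% and 5.45% of all genes. There were 4, 10 and 7 members without wild type replicates 1 to 3, beside 7.5%, 9.08% and 8.57%. A limma-voom fit of reads recovered from the RPKM values called 0 members, beside 0.0458% of genes.

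The differences of the whole group were centred close to 0. The median log2 fold change, taken as knockout over wild type, was 0.04 over the 76 members, with quartiles of -0.21 and 0.56, beside 0.02 over all genes tested. Above 0 lay 41 members and below it 35, a share above 0 of 53.9% beside 51.9% of all genes tested. A log2 fold change under 0.5 in size was seen in 44 of the 76 members, beside 8574 of the 13179 genes tested. One of at least 1 was seen in 10 members (13.2%), beside 12.9% of all genes tested and 9.27% of the tested protein-coding genes. All 76 members passed the low-value filter of at least 1 RPKM in at least 3 libraries, none of them through 1 genotype only.

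**Figure D1:**
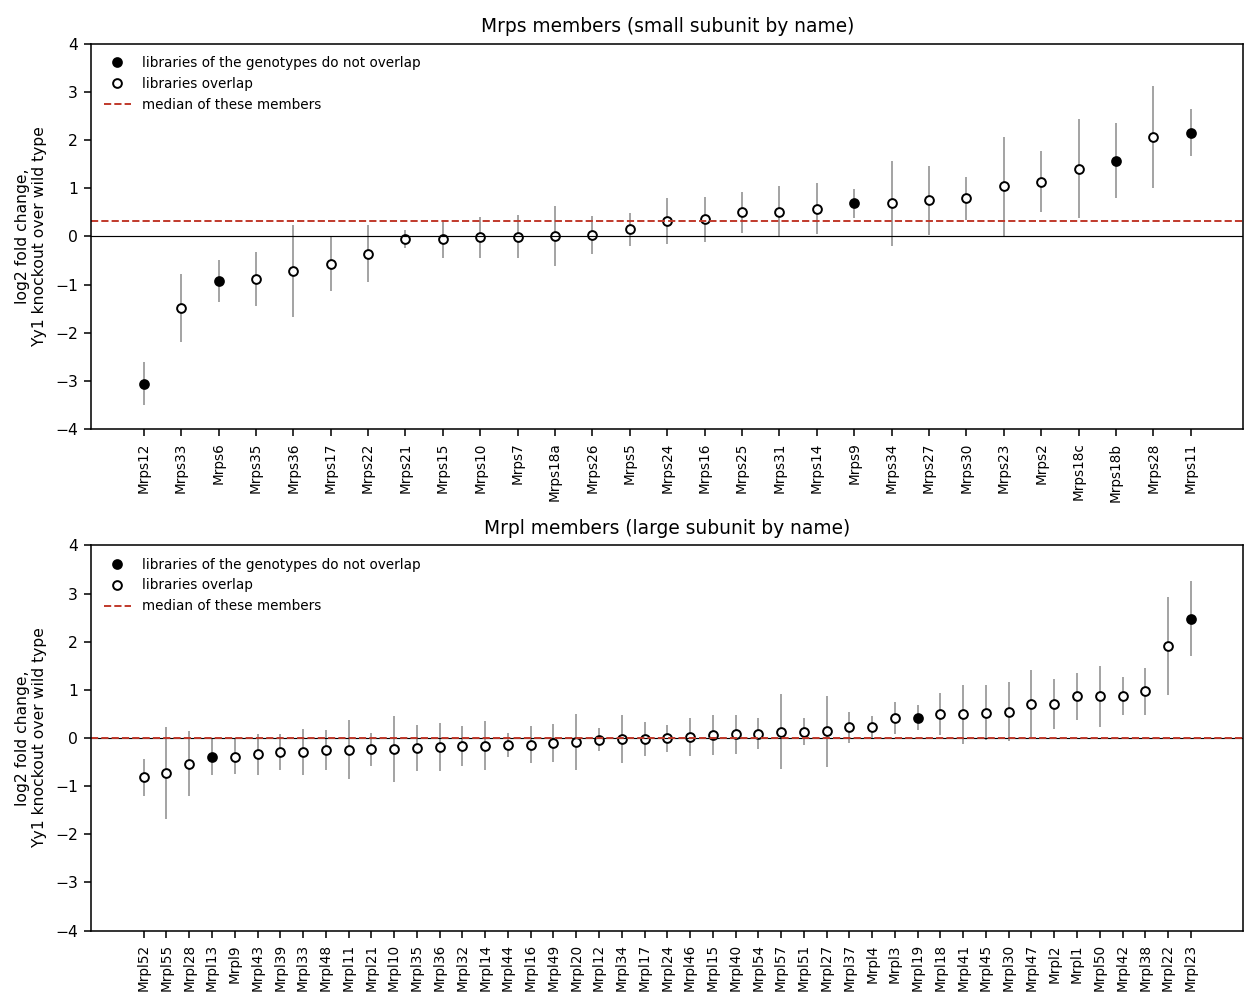
Log2 fold change of Yy1 knockout over wild type for each of the 76 genes on the log2(RPKM + 0.5) scale, Mrps and Mrpl separately, with filled points for the 8 genes whose knockout and wild-type values did not overlap vertical bars for 1 standard error of limma on each side and a dashed line for the median of each panel. A log2 fold change under 0.5 in size was found in 10 of the 29 Mrps genes and 34 of the 47 Mrpl genes. Mrps12 at -3.06, Mrps11 at 2.15 and Mrpl23 at 2.47 lie farthest from 0.

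The gene that stood farthest from 0 among those lower in knockout was Mrps12, which encodes the counterpart of the bacterial protein of the decoding centre, where codon and anticodon are matched. Mrps12 (ENSMUSG00000045948, GRCm38 chr7:28739641-28741820, minus strand) stood at 0.663, 1.37 and 1.08 RPKM in knockout, against 18.4, 10.3 and 9.30 RPKM in wild type. Every knockout library was below every wild-type library by a wide margin. These levels rested on 12, 25 and 22 reads in knockout and 247, 172 and 143 reads in wild type. The means were 1.04 ± 0.357 RPKM in knockout and 12.6 ± 4.99 RPKM in wild type (SD, n = 3 each). The log2 fold change was -3.06 ± 0.45 (SE). In limma its unadjusted p was 0.000177 and its adjusted p 0.205, so the difference did not pass over the whole table. Leaving out each library in turn kept it between -3.24 and -2.76. The authors' deposited table lists Mrps12 at -3.52 on the log2 scale, with 0.583 as its adjusted p.

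Mrps12 shares its upstream stretch with Sars2, the mitochondrial seryl-tRNA synthetase, which starts 172 bases away on the other strand. Because the pair reads outward from it, the 170 bases between the starts are shown in the direction of Mrps12 (GRCm38.p6 chr7:28741822-28741991, minus strand, sequence from RefSeq). Capitals mark the one match there to AANATGG, a short form of the YY1 binding letters.

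Sars2 to Mrps12: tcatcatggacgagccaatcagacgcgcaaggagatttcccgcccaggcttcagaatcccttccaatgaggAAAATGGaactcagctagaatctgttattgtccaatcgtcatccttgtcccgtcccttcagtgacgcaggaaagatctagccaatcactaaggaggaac

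Sars2 stood at 3.61, 3.65 and 5.01 RPKM in knockout, against 6.61, 6.01 and 5.63 RPKM in wild type. These groups also did not overlap, but the gap was much smaller, with a log2 fold change of -0.53 ± 0.35 (SE) and a limma adjusted p of 0.756. Over all 76 members, 33 had such a protein-coding neighbour on the other strand with starts within 1000 bases, overlapping starts included, and 30 of these neighbours were tested. The genotypes did not overlap in 8 of the 30 neighbours, 1 of them the member Mrps11, beside 14.5% of all genes tested. Among them was Ndufs6, a complex I subunit beside Mrpl36, at 53.1, 32.8 and 60.8 RPKM in knockout, against 10.6, 24.0 and 19.7 RPKM in wild type. Its log2 fold change was 1.44 with a limma adjusted p of 0.429, beside -0.20 for Mrpl36. Ndufs6 lies outside the naming rule given below and was named with its values known.

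Mrps11 stood in the opposite direction. It encodes a protein of the platform of the small subunit, where messenger RNA leaves. Mrps11 (ENSMUSG00000030611, GRCm38 chr7:78783119-78792989, plus strand) stood at 7.70, 4.95 and 6.36 RPKM in knockout, against 1.10, 0.543 and 1.59 RPKM in wild type, again with a wide gap between the groups. The reads behind these values were 291, 188 and 270 in knockout and 31, 19 and 51 in wild type. The means were 6.34 ± 1.38 RPKM in knockout and 1.08 ± 0.523 RPKM in wild type (SD, n = 3 each). The log2 fold change was 2.15 ± 0.49 (SE), with an unadjusted p of 0.0026 and a limma adjusted p of 0.429.

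The start of Mrps11 overlaps another member, Mrpl46, by 413 bases on the opposite strand. The strand setting of the counting is not given, so reads in that overlap cannot be assigned to one gene. Mrpl46, a large-subunit protein with no bacterial counterpart, stood at 19.8, 10.1 and 22.6 RPKM in knockout, against 20.5, 10.3 and 20.6 RPKM in wild type. Its groups overlapped nearly fully, with a log2 fold change of 0.02 and a limma adjusted p of 0.996, so the partners of this divergent pair did not show the same difference. In all, 28 members overlap another listed gene in the annotation.

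**Figure D2:**
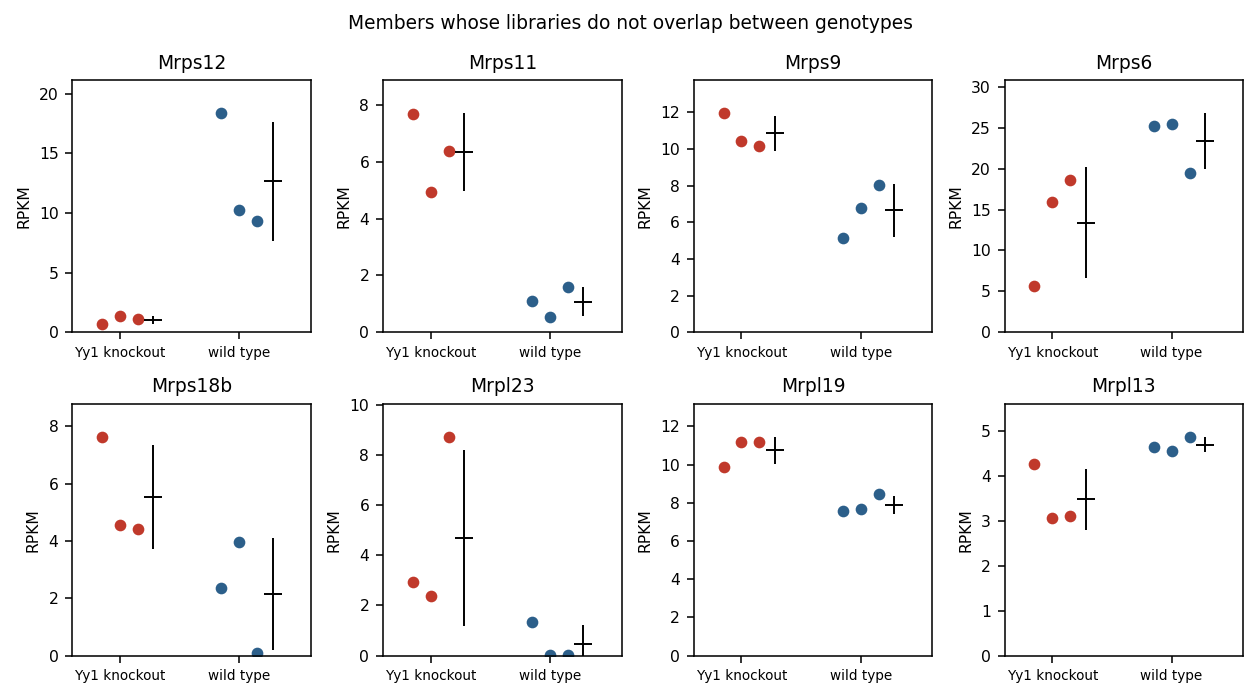
Level in RPKM in each library for the 8 genes whose genotypes did not overlap, knockout left and wild type right in each panel, with points for libraries and bars for the mean and SD over 3 libraries. The gap is widest relative to the level in Mrps12 and Mrps11, and it is narrow in Mrps6, Mrps18b and Mrpl13.

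The other small-subunit genes without overlap were Mrps9, Mrps6 and Mrps18b. Mrps9, whose bacterial counterpart reaches with its tail to the peptidyl-tRNA site, stood at 11.97, 10.4 and 10.2 RPKM in knockout, against 5.16, 6.78 and 8.01 RPKM in wild type. The knockout libraries lay close together and above all wild-type libraries, with a log2 fold change of 0.68 ± 0.29 (SE) and a limma adjusted p of 0.639. Mrps6, another platform protein, stood at 5.68, 15.9 and 18.6 RPKM in knockout, against 25.2, 25.5 and 19.5 RPKM in wild type. Here the highest knockout library came within 1 RPKM of the lowest wild-type library, the log2 fold change was -0.93 ± 0.43 (SE), and the adjusted p was 0.664 in limma. Without knockout replicate 1 the fold change was -0.42. Mrps6 overlaps Slc5a3, an inositol transporter gene, on the same strand, and its reads are estimates because they did not come out whole.

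Mrps18a, Mrps18b and Mrps18c are paralogs related to a single bacterial protein. Mrps18b stood at 7.65, 4.57 and 4.41 RPKM in knockout, against 2.37, 3.98 and 0.0971 RPKM in wild type, the last value resting on 3 reads. Its log2 fold change was 1.57 ± 0.78 (SE), with a limma adjusted p of 0.682, and it was 0.71 without wild type replicate 3. Ppp1r10, which starts 45 bases from Mrps18b on the other strand, had a log2 fold change of -0.09 ± 0.33 (SE), and its groups overlapped. Mrps18c stood at 0.320, 3.29 and 5.57 RPKM in knockout, against 2.52, 0.173 and 0 RPKM in wild type, with a log2 fold change of 1.41 ± 1.03 (SE) that ran from 0.81 without knockout replicate 3 to 2.25 without knockout replicate 1. The groups overlapped, and both held libraries with few reads. Mrps18a, at 1.42, 4.77 and 6.38 RPKM in knockout and 3.78, 2.05 and 5.74 RPKM in wild type, had a log2 fold change of 0.01. The paralogs thus ranged from near 0 to 1.57 on the log2 scale, none past the test.

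In the large subunit the genotypes did not overlap in Mrpl23, Mrpl19 and Mrpl13. Mrpl23 encodes a protein at the rim of the tunnel through which the new chain leaves. Mrpl23 (ENSMUSG00000037772, GRCm38 chr7:142532686-142540747, plus strand) stood at 2.94, 2.38 and 8.73 RPKM in knockout, against 1.35, 0.0349 and 0.0381 RPKM in wild type. The wild-type values rested on an estimated 85, 3 and 3 reads, so 1 of its 3 libraries carried nearly all of them. The log2 fold change was 2.47 ± 0.78 (SE), with an unadjusted p of 0.0142 and a limma adjusted p of 0.557. A processed pseudogene row, Mrpl23-ps1, stood higher than the gene in all libraries, at 16.1, 25.2 and 28.3 RPKM in knockout and 24.7, 38.2 and 22.3 RPKM in wild type. Near-identical copies can split reads, so the level of Mrpl23 is uncertain.

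Mrpl19 and Mrpl13 showed smaller gaps. Mrpl19, at the interface of the subunits, stood at 9.90, 11.2 and 11.2 RPKM in knockout, against 7.56, 7.65 and 8.44 RPKM in wild type. Its log2 fold change was 0.42 ± 0.26 (SE), with a limma adjusted p of 0.744. Mrpl13 stood at 4.26, 3.07 and 3.11 RPKM in knockout, against 4.64, 4.56 and 4.87 RPKM in wild type. The wild-type libraries were nearly equal and all above knockout, with a log2 fold change of -0.40 ± 0.37 (SE) and a limma adjusted p of 0.830. Mtbp, whose start overlaps that of Mrpl13 on the other strand, had a log2 fold change of -0.15 ± 0.45 (SE), and its groups overlapped.

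Mean levels over the 6 libraries ran from 1.81 RPKM in Mrps22 to 51.6 RPKM in Mrpl24, with 8 members over 20 RPKM and 19 under 5 RPKM. The median member had a mean of 9.91 RPKM beside 9.07 RPKM for the median tested gene. Mrpl24, a protein near the tunnel exit, stood at 45.2, 48.0 and 58.0 RPKM in knockout, against 39.5, 41.5 and 77.4 RPKM in wild type. Its log2 fold change was -0.01 ± 0.28 (SE). The groups overlapped, and wild type replicate 3 was highest. Mrpl12, the stalk protein that recruits translation factors, stood at 35.7, 24.25 and 34.4 RPKM in knockout, against 26.9, 29.7 and 40.3 RPKM in wild type, with a log2 fold change of -0.04 ± 0.24 (SE). Mrps21 had the smallest standard error of all members, at 24.0, 21.8 and 23.1 RPKM in knockout and 25.2, 22.4 and 24.2 RPKM in wild type, with a log2 fold change of -0.06 ± 0.18 (SE).

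Mrpl42, added to the large subunit after the bacterial ancestor, is also among the most abundant members. It stood at 37.8, 58.8 and 94.6 RPKM in knockout, against 27.8, 23.6 and 50.3 RPKM in wild type. The lowest knockout library lay below the highest wild-type library. The log2 fold change was 0.88 ± 0.39 (SE), with a limma adjusted p of 0.654, and it was 0.55 without knockout replicate 3. Mrpl42 was the only member called in any alternative, with an adjusted p of 0.0282 in limma-voom with a replicate block, a combination chosen after seeing the data that called 0.557% of genes.

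Other members chosen for their role also had groups that overlapped. Mrps7, a head protein of the small subunit, had a log2 fold change of -0.01 ± 0.45 (SE). Mrpl37 had 0.22 and Mrpl44, which carries a fold related to RNase III, had -0.15. Mrps30, the large-subunit protein with a small-subunit name, stood at 32.1, 18.6 and 17.2 RPKM in knockout, against 8.81, 8.55 and 24.8 RPKM in wild type, with a limma adjusted p of 0.734. Mrps36 stood at 5.23, 1.88 and 0.121 RPKM in knockout and 6.74, 3.07 and 0.955 RPKM in wild type, a spread within each genotype larger than the difference between them. A pseudogene row, Mrps36-ps1, stood at 40.0, 4.67 and 41.0 RPKM in knockout, against 2.28, 2.03 and 0.221 RPKM in wild type, with a log2 fold change of 3.58 ± 0.91 (SE) and a limma adjusted p of 0.429. It is no member, and it was named after its values were seen.

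The subunits, compared by name, had median log2 fold changes of 0.32 for the 29 Mrps genes and -0.01 for the 47 Mrpl genes. Above 0 lay 18 Mrps genes (62.1%) and 23 Mrpl genes (48.9%). A log2 fold change of at least 1 in size was found in 8 Mrps genes (27.6%) and 2 Mrpl genes (4.26%). The genotypes did not overlap in 5 Mrps genes (17.2%) and 3 Mrpl genes (6.38%), beside 14.5% of all genes tested. The Mrps genes were the lower ones, with a median mean of 6.84 RPKM beside 10.5 RPKM for Mrpl. By place in the particle the medians were 0.34 for the small subunit and 0.01 for the large one.

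The difference between the subunit medians rested on wild type replicate 3. The shares given above were not taken again with a library left out. The Mrps median minus the Mrpl median was 0.33 on the log2 scale with all 6 libraries and 0.22 to 0.40 when any library but wild type replicate 3 was left out. Without wild type replicate 3 it was -0.19, with medians of 0.04 for Mrps and 0.23 for Mrpl. In that library 19 Mrpl genes and 2 Mrps genes had their highest level of all 6 libraries, beside 23.59% of all genes tested. There 7 Mrpl genes and 9 Mrps genes had their lowest, beside 28.01% of all genes tested. In knockout replicate 3, 15 Mrpl genes and 7 Mrps genes had their highest level, beside 17.67% of all genes tested. In the same library 1 Mrpl gene and 3 Mrps genes had their lowest, beside 18.29% of all genes tested. Wild type replicate 3 also held 9 of the members under 1 RPKM, against 0 to 5 in the other libraries. It listed 2 members, Mrps18c and Mrpl22, at 0.

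**Figure D3:**
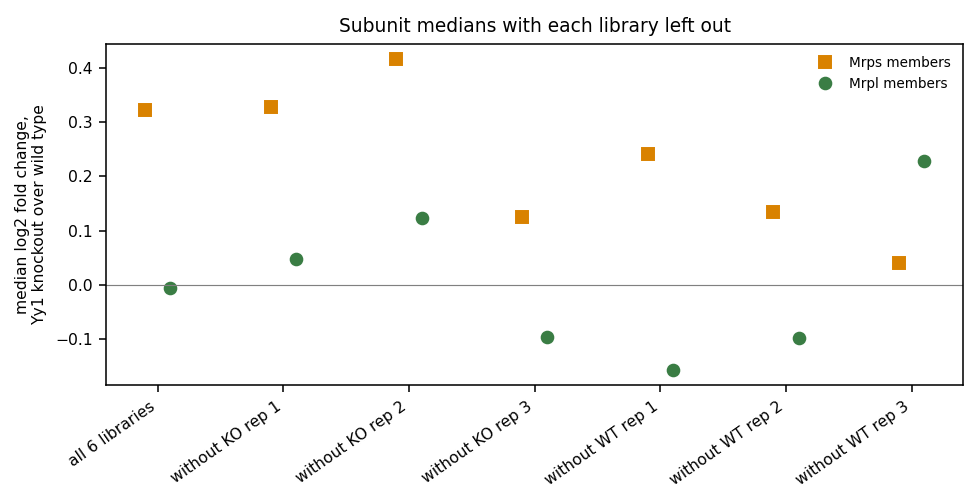
Median log2 fold change (Yy1 knockout over wild type) for the Mrps and Mrpl genes with all 6 libraries and with each library left out. The Mrps median lies above the Mrpl median in every setting but the one without wild type replicate 3, where it is 0.04 beside 0.23.

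The summed levels set the same library apart. The Mrps genes summed to 269, 246 and 295 RPKM in knockout, against 245, 262 and 219 RPKM in wild type. The Mrpl genes summed to 570, 567 and 785 RPKM in knockout, against 509, 532 and 801 RPKM in wild type. Both sums overlapped between the genotypes. The ratio of Mrps to Mrpl was 0.472, 0.434 and 0.375 in knockout, against 0.481, 0.493 and 0.274 in wild type, with means of 0.427 ± 0.0487 in knockout and 0.416 ± 0.123 in wild type (SD, n = 3 each). The lowest ratio was that of wild type replicate 3 and the next lowest that of knockout replicate 3, the libraries with the highest Mrpl sums.

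**Figure D4:**
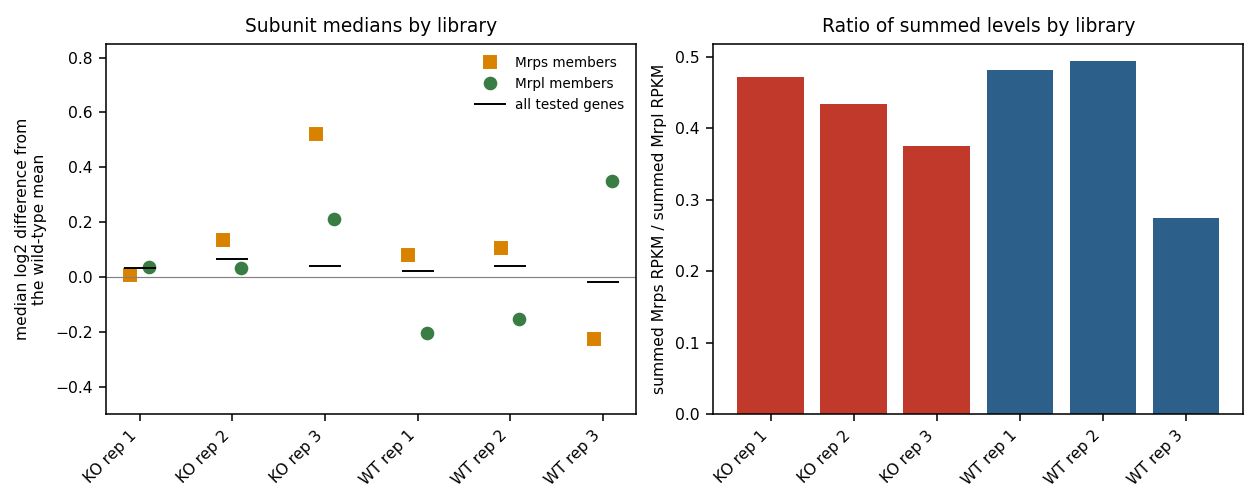
Left, the median log2 difference of the Mrps genes (squares), the Mrpl genes (circles) and all tested genes (lines) from the wild-type mean in each library. Right, the summed Mrps RPKM over the summed Mrpl RPKM in each library, where knockout spans 0.375 to 0.472 and wild type 0.274 to 0.493.

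The median member varied somewhat more between libraries of one genotype than the median tested gene. The median within-genotype SD of log2 values was 0.40 in knockout and 0.59 in wild type for the members, beside 0.38 in knockout and 0.48 in wild type for all genes tested. For the tested protein-coding genes it was 0.34 in knockout and 0.42 in wild type. Single genes with the widest swings included Mrps28, at 18.4, 10.9 and 9.35 RPKM in knockout and 0.890, 19.6 and 0.518 RPKM in wild type. Mrpl22, a tunnel protein, stood at 12.4, 1.69 and 1.36 RPKM in knockout and 0.158, 2.53 and 0 RPKM in wild type. In both genes wild type replicate 2 lay within or above the knockout range, so the groups overlapped. These 2 were named after their values were seen.

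Divided by origin, 47 members have a bacterial counterpart and 28 are specific to mitochondria. All 8 members without overlap had a bacterial counterpart, a share of 17.0%, beside 14.5% of all genes tested, while 0 of the mitochondria-specific members lacked overlap. That difference between the origins was not tested. The median log2 fold change was -0.01 for genes with a bacterial counterpart and 0.11 for the mitochondria-specific ones, both near the 0.02 of all genes tested.

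Promoter windows of RefSeq (GRCm38.p6, 250 bases before to 50 after the start) were matched for 67 members and searched on both strands. A gene counted if any of its windows held a match. The longer YY1 letters AANATGGCG, which contain the shorter AANATGG, were found in 10 members (14.9%). They were found in 2.76% of all 27025 genes with a window and in 6.18% of the listed protein-coding ones. The shorter letters were found in 22 members (32.8%), beside 18.2% of all genes with a window and 17.8% of the listed protein-coding ones. The ETS letters CCGGAAG were found in 24 members (35.8%), beside 9.93% of all genes with a window and 20.4% of the listed protein-coding ones. The NRF1 letters GCGCATGC were found in 8 members (11.9%), beside 3.05% and 6.16%. A match describes letters and not binding. The matches of the named members to the longer YY1 letters are shown, to let their place and surroundings be compared. Each is given 5′ to 3′ in the direction of the gene, capitals mark the match, and the coordinates are those of the capitals.

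Mrps11, chr7:78783023-78783031, plus strand: ctacgggcgcCGCCATCTTtctgtcttcc
Mrps18a, chr17:46111015-46111023, plus strand: ggtgcgttccAAGATGGCGgccctcaggg
Mrps30, chr13:118387229-118387237, minus strand: gcggcgggcgAAAATGGCGgcggccaggt
Mrpl37, chr4:107066832-107066840, minus strand: tgcacgggcaAAGATGGCGgcgtccaggt
Mrpl42, chr10:95501914-95501922, minus strand: agattgaagcAAGATGGCGagcgcgcggt

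Of the 10 matches, 8 lay after the annotated start, with their first base between 9 and 37 bases from it, and 6 covered an annotated start codon, those of Mrps18a and Mrps30 included. In Mrps11 the letters lay before the start on the other strand. That match lies inside the annotated Mrpl46 and reads in its direction, and Mrpl46 had a log2 fold change of 0.02. The 10 members with the longer YY1 letters had a median log2 fold change of 0.27, from -0.21 to 2.15, with 8 of 10 above 0, beside -0.02 for the 57 members without. The genotypes did not overlap in 1 of the 10, Mrps11, beside 14.5% of all genes tested. Members with the shorter letters had a median of 0.00, with 11 of 22 above 0.

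**Figure D5:**
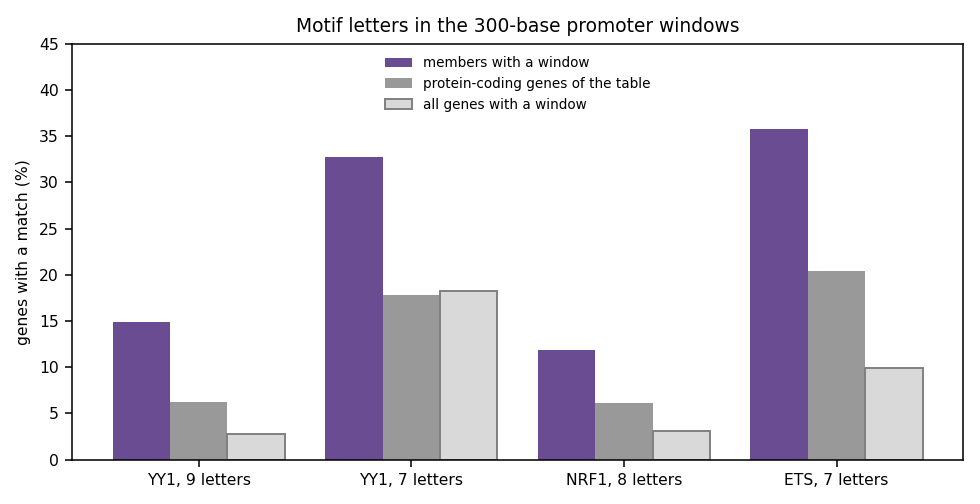
Percent of genes with a promoter window holding each set of letters, for the 67 matched members, all genes with a window and the listed protein-coding ones. The members stand highest for all 4 sets, at 14.9% for the longer YY1 letters beside 2.76% of all genes with a window.

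The partners of these genes in mitochondrial translation were also without a call, in lists made with earlier results of these data known. Of 6 mitoribosomal proteins not named Mrp, 0 passed, with a median log2 fold change of 0.29. Among them Dap3, a GTP-binding protein of the small subunit, stood at 15.3, 14.4 and 19.2 RPKM in knockout, against 7.39, 10.02 and 10.01 RPKM in wild type. Its groups did not overlap, and its log2 fold change of 0.80 had a standard error of 0.26 and a limma adjusted p of 0.560. Chchd1 had a log2 fold change of 0.50 and Aurkaip1 0.35.

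Of 24 assembly factors and ribosomal RNA modifiers, 0 passed, with a median of 0.31. Noa1, a GTPase of small-subunit assembly, had a log2 fold change of 0.85 and the pseudouridine synthase Rpusd3 1.51. Mtg1, a GTPase of large-subunit assembly, had -1.69. Their adjusted p-values were 0.609, 0.645 and 0.666 in limma. Rpusd3 stood at 2.63, 2.99 and 2.20 RPKM in knockout, against 0.681, 1.44 and 0.0626 RPKM in wild type. Mtg1 stood at 0.0429, 1.51 and 0 RPKM in knockout, against 1.69, 1.61 and 3.43 RPKM in wild type. Both genes had libraries near 0, and their standard errors were 0.66 for Rpusd3 and 0.79 for Mtg1. Of 19 translation factors and tRNA-modifying proteins, 0 passed, with a median of 0.11. Gatc and Gatb, subunits of one amidotransferase that makes glutaminyl-tRNA, stood in opposite directions at 0.65 and -1.24. Trmu, which adds sulfur to tRNA, stood at -0.88.

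Of 17 mitochondrial tRNA synthetases, 0 passed, with a median of -0.07. Ears2, the glutamyl-tRNA synthetase, stood at 2.06, 1.09 and 0.596 RPKM in knockout, against 5.35, 4.87 and 4.66 RPKM in wild type. Its values were clearly apart, with a log2 fold change of -1.73 ± 0.51 (SE) and a limma adjusted p of 0.524. Pars2 stood at a log2 fold change of -1.39 and Iars2 at 0.49. Of 21 genes of mitochondrial transcription and RNA handling, 0 passed, with a median of -0.14. Tefm, the elongation factor, stood at 1.20, Tfam, which packages and transcribes mitochondrial DNA, at 0.52, and Mterf1a at -1.50. Across these lists of protein-coding genes, 14.3% to 17.6% of the members had groups without overlap, beside 14.5% of all genes tested. An unadjusted p under 0.05 in limma was reached by 1 of the mitoribosomal proteins not named Mrp, 1 assembly factor, 2 translation factors, 1 synthetase and 2 genes of transcription and RNA handling, beside 7.79% of all genes tested. The limma-voom fits, with and without the replicate block, and the authors' deposited table called 0 genes in each of these lists.

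The RNAs that these proteins bind are the 2 mitochondrial ribosomal RNAs. The large one, mt-Rnr2, stood at 15694, 16526 and 12931 RPKM in knockout, against 25971, 21158 and 18690 RPKM in wild type. The small one, mt-Rnr1, stood at 13195, 13516 and 13438 RPKM in knockout, against 22479, 17810 and 15668 RPKM in wild type. In both, all knockout libraries lay below all wild-type libraries. For mt-Rnr2 the log2 fold change was -0.54 with a limma adjusted p of 0.822, and it was -0.07 after quantile normalization. For mt-Rnr1 it was -0.46 with a limma adjusted p of 0.841, and it was 0.07 after quantile normalization. That scaling gives equal ranks equal values in every library, so it cannot show a difference in genes near the top rank. With a library left out, the fold changes ran from -0.65 to -0.41 for mt-Rnr2 and from -0.58 to -0.32 for mt-Rnr1. With all 6 libraries the standard errors were 0.49 for mt-Rnr2 and 0.46 for mt-Rnr1. They were 0.26 and 0.25 in limma without its variance trend, and neither gene passed there. The authors' deposited table, where 24 of 15553 listed genes (0.154%) have an adjusted p under 0.05, gives mt-Rnr2 an adjusted p of 0.000376 and mt-Rnr1 one of 0.0026. In limma-voom neither passed, with adjusted p-values of 0.150 for mt-Rnr2 and 0.259 for mt-Rnr1. With a replicate block, added to that fit after seeing the data, both passed at adjusted p-values of 2.54e-05 and 0.00589. Whether the replicate numbers used for that block pair the samples is not settled. Mitochondrial insertions in the nuclear genome can share reads with these genes.

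In the authors' deposited table no member had an adjusted p under 0.05, and 7 members had an unadjusted p under 0.05, beside 8.02% of all listed genes. The 7 were Mrps12, Mrpl23, Mrps2, Mrps11, Mrps35, Mrpl38 and Mrps9. Of these, the table gives Mrpl23 a log2 fold change of 4.74, Mrps11 of 2.66 and Mrps9 of 0.71, and the smallest adjusted p of any member there was 0.583, that of Mrps12.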

How the data were processed

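RNA sequencing libraries were compared in 6 samples of sorted mouse bone marrow cells, 3 Yy1 knockout and 3 wild type, grouped by the samples' titles. RNA was prepared with the RNeasy Micro kit, amplified with the Ovation RNA-Seq System V2 and sequenced on an Illumina HiSeq instrument, per the labels' protocols. The build mm10 and the tools Subread, featureCounts, edgeR and limma are named in the submitters' processing notes, without versions or settings. The deposited values are RPKM, a unit that the header does not name and that was found from the values. After multiplication by exon lengths from GENCODE M21 (GRCm38) they gave whole reads in every library, within 0.02 reads, for 71.8% of the 15465 genes with a length, 53 of the 76 members included. The reads of the other 23 members are estimates. Amplified reads are not independent molecules. For each gene the authors also deposited a p-value, its adjusted form and a log2 fold change (knockout over wild type), per the file headers, with no test named.

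Each gene was tested on log2(RPKM + 0.5) with limma 3.58.1 (R 4.3.3), using the variance trend without robust fitting and Benjamini-Hochberg adjustment at 0.05. A gene entered if 3 or more libraries reached 1 RPKM. Fold changes on this scale understate those of low genes. A list is described by counts and medians, without a test. Named members were those at an unadjusted p under 0.05 or without overlap, the 3 most abundant of each subunit, members chosen for their role, the 3 genes of each related list with the smallest unadjusted p, and head-to-head neighbours of the first. The members, lists and roles were chosen with earlier results of these data known. Alternatives were other pseudocounts, filters, scalings, no variance trend, a replicate block, limma-voom on recovered reads and leaving out each library. Replicate numbers were checked for pairing, and whether they pair the samples was not settled. Promoter windows came from RefSeq (GRCm38.p6). Depth limits the precision of thinly covered genes, and reads are given for some of them.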

Additional observations from a re-analysis of the deposited data

How the results depend on the processing

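No member passed in limma on log2 RPKM under any pseudocount, filter, scaling, trend or block setting or with any library left out, and the limma-voom fit of recovered reads also called 0 of 76. Over the whole table limma called 0 genes, 0 to 1 with a library left out (Gm23130 without wild type replicate 1, Gm24455 without wild type replicate 2), and 6 in limma-voom; limma-voom with a replicate block, chosen after seeing the data, called 73, of which 1 was a member, Mrpl42 (log2 fold change 0.99, adjusted p 0.0282). Same-numbered libraries deviated together only weakly (correlations of 0.0152, 0.0593 and 0.0467), beside -0.0758 to 0.0353 for libraries of different number. Each knockout library correlated best with the wild-type library of its number. Correlations this weak cannot settle whether the numbers pair the samples. The replicate block alone called 0 genes, with 1040 at an unadjusted p under 0.05, and left the members' median at 0.04; wild type replicate 1 correlated best with knockout replicate 2.

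With each library left out, the medians ran from 0.04 to 0.42 for Mrps, from -0.16 to 0.23 for Mrpl and from -0.19 to 0.40 for their difference, the extremes of the last being without wild type replicate 3 (Mrps 0.040, Mrpl 0.228, difference -0.188) and without wild type replicate 1. The other alternatives kept the difference between 0.17 and 0.43. Of 19 named members, 13 kept their direction in every alternative run for them, which left out the 5 RPKM filter for those it removed. The 6 that did not lay near 0 or held libraries with few reads, and the cause was not tested. Mrps18a was -0.0078 with a pseudocount of 0.1, -0.013 with median scaling and -0.36 to 0.56 with a library left out. Mrps7 was 0.0038 with quantile normalization, 0.034 in limma-voom, 0.17 in limma-voom with the replicate block and -0.44 to 0.29 with a library left out. Mrps21 was 0.0065 in limma-voom and 0.0013 with the block. Mrpl24 was 0.052 in limma-voom and -0.18 to 0.30 with a library left out, Mrpl12 0.018 in limma-voom, 0.0056 with the block and -0.16 to 0.14 with a library left out, and Mrps36 -1.46 to 0.14. The adjusted p ran from 0.147 to 0.779 for Mrps12, from 0.214 to 0.896 for Mrps11 and from 0.486 to 0.896 for Mrpl23. With 3 libraries per genotype and 3 reads or fewer for some members in a library, values of thinly covered members are imprecise.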
